A study of Homo sapiens with 24 samples.

Results

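The RB and E2F family genes examined here are *RB1*, *RBL1*, *RBL2*, *E2F1*, *E2F2*, *E2F3*, *E2F4*, *E2F5*, *E2F7* and *E2F8*. They were taken by Entrez gene identifier from counts of 25702 identifiers, and all 10 were among the 13356 genes that passed the filter on low counts. *E2F2* and *E2F8* reached that filter through the groups in which they were high. RNA-seq was carried out on 24 samples of IMR90 cells, a line of human lung fibroblasts, in 4 groups of 6 biological replicates at passage 23 to 28. Every group carried ER:HRAS(G12V), a fusion of oncogenic RAS with the oestrogen receptor that is switched on by 4-hydroxytamoxifen (4OHT). The growing group had the empty MSCV vector and no agent, and the shHMGA1 group had MSCV miR30 shHMGA1, a single short hairpin against *HMGA1*, and no agent. The RIS group (RAS-induced senescence) had the empty vector and 6 days of 4OHT, and the RIS+shHMGA1 group had the hairpin and 6 days of 4OHT. No sample had 4OHT without the RAS fusion, so that the agent and RAS cannot be told apart.

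The pocket proteins (RB1, RBL1, also named p107, and RBL2, also named p130) bind E2F transcription factors and hold their target genes down. Cyclin-dependent kinases phosphorylate the pocket proteins and so release the E2Fs, and the genes of DNA replication are then transcribed. E2F1, E2F2 and E2F3 are activators, E2F4 and E2F5 mostly repress together with pocket proteins, and E2F7 and E2F8, the atypical E2Fs, repress without them. In senescence the pathway is known for a lasting arrest, in which RB and p130 keep E2F targets silent.

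Libraries held between 8698070 and 23103424 counts. Of the 24 libraries, 2 stood apart from their labelled groups. In a principal component analysis of the samples, where the first component held 73.9% of the variance, growing replicate 4 lay at 77.3 and the other growing samples between −84.3 and −57.2. RIS replicate 2 lay at −77.1 and the other RIS samples between 16.8 and 62.1. Each thus lay on the side of the other RAS state. Both were kept as labelled, and whether the 2 labels were exchanged was not tested, so that the values with 24 samples hold only as far as the labels do. Comparisons with the growing or RIS group are given with all 24 samples and with the 22 samples without these libraries. *HMGA1*, the gene the hairpin is directed against, was lower in shHMGA1 than in growing samples (log2 fold change −2.76, standard error 0.31, adjusted p = 1.9e-05) and lower in RIS+shHMGA1 than in RIS samples (−2.05, standard error 0.30, adjusted p = 0.00065). With 22 samples these were −2.78 (adjusted p = 5.2e-06) and −2.06 (adjusted p = 0.00021). All 8 lung fibroblast markers passed the filter and 0 of 10 epithelial, endothelial and blood markers did. Summed within each of these cell types, the latter stayed at or below 2.01 CPM in any sample. The fibroblast markers were themselves not level. Their summed CPM was 14062 to 20037 in shHMGA1 and 4435 to 5815 in RIS+shHMGA1 samples, with 7 of 8 lower, and their part in the results that follow was not tested.

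Several E2F and pocket protein genes are known to be E2F targets themselves, and the sequences below show where letters of the E2F motif lie in the members' promoters. Promoters of 300 bases, from 250 before to 50 after the start, were taken from RefSeq (GRCh38.p14) for 8 members. Of the others, *E2F8* had no entry and *E2F5* was left out of the search. The promoters of the 8 members made 10 windows, since *E2F3* and *RBL2* had a second start. They were searched on both strands for TTTCCCGC, TTTCGCGC, TTTGCCGC and TTTGGCGC, forms of the E2F motif. A match was found in *E2F1*, *E2F2*, *E2F3* and *RBL1*, with 2 matches each in *E2F1* and *RBL1*, and matches within a promoter did not overlap. No match was found in the windows of *RB1*, *RBL2*, *E2F4* and *E2F7*, of which the *RB1* window lies 172699 bases from the first annotated start. Among all 35116 promoters of the same length, 3.31% held at least 1 of the 4 forms. Counted by gene, 1090 of 27305 had such a promoter. Each line below gives 30 bases on the gene's strand, with 1 match (on either strand) in capitals, at positions −20 for *E2F1*, −42 for *E2F2*, −16 for *RBL1* and −53 for *E2F3*, counted from the start site to the first capital.
E2F1 (chr20:33686387-33686416, minus strand): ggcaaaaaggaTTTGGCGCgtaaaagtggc
E2F2 (chr1:23531257-23531286, minus strand): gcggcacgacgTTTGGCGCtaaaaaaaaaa
RBL1 (chr20:37095995-37096024, minus strand): ttttcgcgcgcTTTGGCGCaggtggttgtg
E2F3 (chr6:20401815-20401844, plus strand): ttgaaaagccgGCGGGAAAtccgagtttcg
*E2F1*, *E2F2* and *RBL1* carry the same 8 letters, TTTGGCGC, in the sense orientation. The second *RBL1* match, TTTCGCGC at −26, lies within its line in lower case, and the second *E2F1* match, at −33, starts before its line. *E2F3* holds a match in its first window and none in its second, and was not called in any comparison that follows. A second motif, TTTGAA (the CHR element of mitotic genes), was in 15.2% of all promoters. Among the 8 members searched it was in the first window of *E2F3* and of *RBL2*, and not in their second.

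In GRCh37 the pocket protein genes are *RB1* (Entrez 5925) at chr13:48877880-49173572 on the plus strand, *RBL1* (5933) at chr20:35624752-35724400 on the minus strand and *RBL2* (5934) at chr16:53467889-53525560 on the plus strand. The activators are *E2F1* (1869) at chr20:32263283-32274191, *E2F2* (1870) at chr1:23832930-23857725, both on the minus strand, and *E2F3* (1871) at chr6:20402110-20493945 on the plus strand. *E2F4* (1874) lies at chr16:67226058-67232821 and *E2F5* (1875) at chr8:86089389-86129387, both on the plus strand. *E2F7* (144455) lies at chr12:77415028-77459349 and *E2F8* (79733) at chr11:19245610-19263167, both on the minus strand. Counts were taken over exons, and some exons are shared with genes of the opposite strand. Of 5993 exonic bases of *E2F5*, 991 overlap *RBIS*, and of 8110 exonic bases of *RBL2*, 609 overlap *AKTIP*. The strand setting of the counting is not given in the sources used here, so reads of these partners may be included.

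The effect of RAS was examined first in RIS+shHMGA1 against shHMGA1 samples, since neither library that stands apart belongs to these groups. Both still enter the fit through the shared spread, and the standard error of *RB1* was 0.25 with 24 samples and 0.13 with 22. Of the 10 members, 5 were lower and 2 were higher with an adjusted p under 0.01 and a log2 fold change beyond 0.58 in either direction. *RB1*, *RBL1*, *E2F1*, *E2F2* and *E2F8* fell, and *E2F5* and *E2F7* rose, with 24 samples as with 22. *E2F2* and *E2F8* passed the filter through the groups in which they were high, so their lower values here are no test of RAS. The 8 other members gave 3 lower and 2 higher. By the same rule 19.5% of all tested genes were lower and 19.6% were higher. Levels that did not overlap between the groups were found in 6 members that were lower (the 5 above without exception, and *E2F3*, or 4 without *E2F2* and *E2F8*) and in 2 that were higher (*E2F4* and *E2F7*), against 22.5% and 20.9% of all tested genes. The median log2 fold change was −0.21 over the 8 members without *E2F2* and *E2F8* and −0.02 over all tested genes.

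Among the pocket proteins, *RB1*, the retinoblastoma gene itself, had a lowest, median and highest level of 50.7, 61.9 and 72.8 CPM in shHMGA1 samples. In RIS+shHMGA1 samples it had 23.5, 26.7 and 39.9 CPM, so that the groups did not overlap. Its log2 fold change was −1.10 (standard error 0.25, adjusted p = 0.0011). *RBL1*, which codes for p107 and is itself an E2F target, fell further. It had 13.3, 17.8 and 20.5 CPM in shHMGA1 samples and 1.27, 2.32 and 3.93 CPM in RIS+shHMGA1 samples, a log2 fold change of −2.77 (standard error 0.50, adjusted p = 0.00028). *RBL2*, which codes for p130, the pocket protein of resting cells, was the one member of the trio without a call. It had 36.8, 40.2 and 46.7 CPM in shHMGA1 and 35.9, 38.3 and 48.9 CPM in RIS+shHMGA1 samples. The difference was −0.06 on the log2 scale, with a 95% interval of −0.26 to 0.14 (adjusted p = 0.59).

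Of the 3 activators, 2 passed both thresholds. *E2F1*, whose product drives entry into S phase, had 24.6, 27.3 and 31.5 CPM (lowest, median and highest) in shHMGA1 samples and 4.13, 5.86 and 7.14 CPM in RIS+shHMGA1 samples. The log2 fold change was −2.24 (standard error 0.42, adjusted p = 0.00032). *E2F2* was a rare transcript and came close to 0 with RAS. It had 2.25 to 2.98 CPM in the 6 shHMGA1 samples and 0 to 0.254 CPM in the 6 RIS+shHMGA1 samples, 3 of which had no read. Its summed counts were 204 and 5, a 30.1-fold ratio after scaling, with a 95% interval of 12.7 to 93.8 that covers counting error only. The ratio describes pooled reads and is no test of RAS, since *E2F2* passed the filter through the groups in which it was high. *E2F3*, the third activator, was lower by a smaller amount. It had 32.7, 37.6 and 40.7 CPM in shHMGA1 samples and 26.1, 28.6 and 32.4 CPM in RIS+shHMGA1 samples. The groups did not overlap, but the log2 fold change of −0.35 (standard error 0.11, adjusted p = 0.0073) was below the fold threshold.

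The E2Fs that repress with pocket proteins were both higher in value. *E2F4*, the most abundant E2F per length, had 48.6, 57.8 and 61.7 CPM in shHMGA1 samples and 66.9, 75.6 and 84.0 CPM in RIS+shHMGA1 samples. The groups did not overlap, and the log2 fold change of 0.40 (standard error 0.11, adjusted p = 0.0035) was below the fold threshold. *E2F5* had 6.14, 7.998 and 12.3 CPM in shHMGA1 samples and 10.4, 14.2 and 17.7 CPM in RIS+shHMGA1 samples. It rose by 0.76 on the log2 scale (standard error 0.21, adjusted p = 0.0043), although the ranges overlapped. Without replicate 1, 2, 3 or 5 in turn its call was lost, at log2 fold changes of 0.65, 0.66, 0.77 and 0.77.

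The atypical E2Fs went opposite ways. *E2F7* had 48.1, 51.3 and 90.6 CPM in shHMGA1 samples and 94.8, 107 and 140 CPM in RIS+shHMGA1 samples, without overlap. Its log2 fold change was 0.84 (standard error 0.22, adjusted p = 0.0030), and the call was lost without replicate 1 (0.81) or replicate 3 (0.81). *E2F8*, its close relative, fell to the limit of detection. It had 2.18 to 3.69 CPM in shHMGA1 samples and 0 to 0.174 CPM in RIS+shHMGA1 samples, 2 of which had no read. The summed counts were 216 and 5, a 31.9-fold ratio with a 95% counting interval of 13.5 to 99.2. As for *E2F2*, the ratio describes pooled reads of a gene that passed the filter through its high groups, and is no test. In bulk RNA, fewer cells that transcribe a gene and less RNA per cell cannot be told apart.

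**Figure D1:**
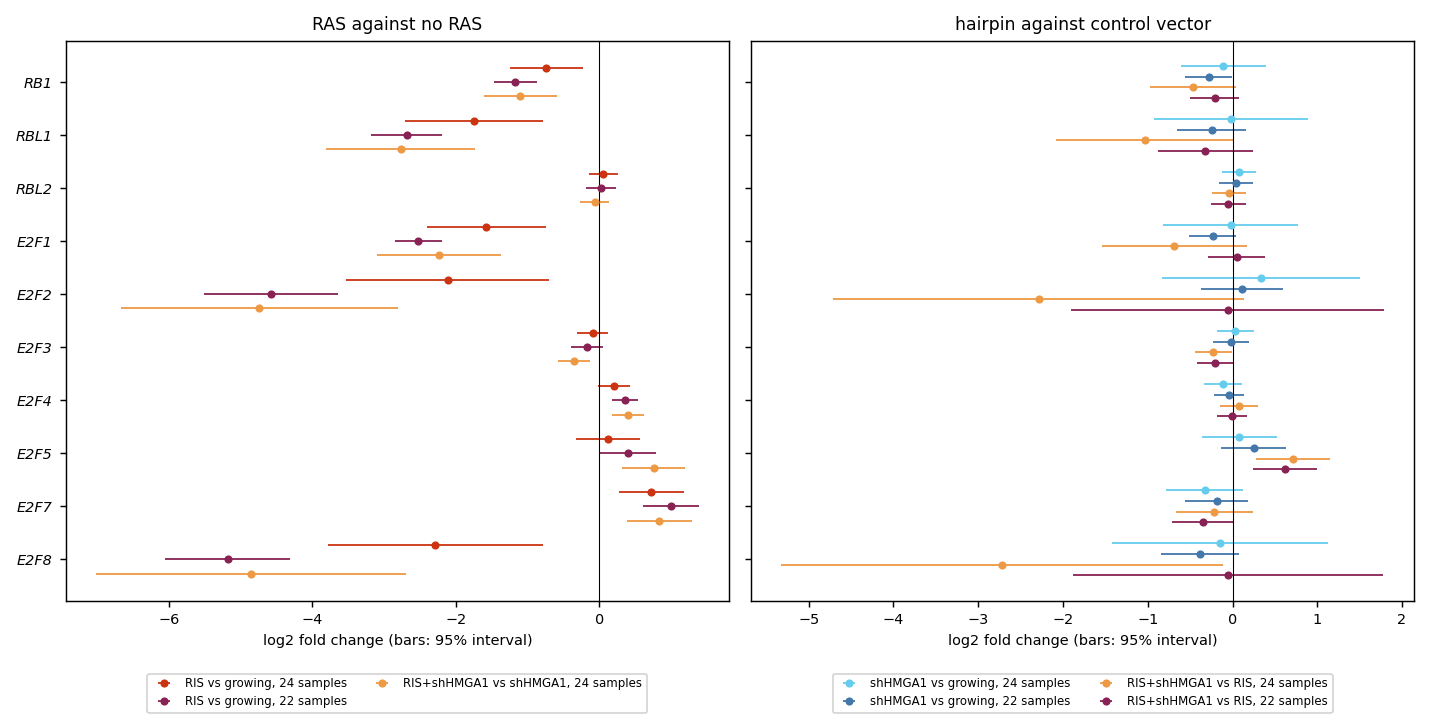
Log2 fold change of each member with its 95% interval from edgeR, for the comparisons of RAS against no RAS (left) and of hairpin against control vector (right), with 24 samples and, where the growing or RIS group takes part, with 22. On the left *RB1*, *RBL1*, *E2F1*, *E2F2* and *E2F8* lie below 0 and *E2F7* above 0 in every fit, and on the right the one member whose intervals lie above 0 in both fits of a comparison is *E2F5*, in RIS+shHMGA1 against RIS.

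In the cells with control vector, RIS against growing, no member passed the thresholds with all 24 samples, and 0.0% of all tested genes did by edgeR's quasi-likelihood test. At an unadjusted p under 0.05 there were 6 of 10 members and 4407 of 13356 tested genes. DESeq2 called 2 members, *RBL1* and *E2F1*, and 829 of 13356 genes. With the 22 samples, 5 members were lower and 1 was higher, against 20.5% and 19.2% of tested genes. The ranges of 5 members that were lower and 2 that were higher did not overlap, against 19.3% and 15.9%. The 5 that fell were again *RB1*, *RBL1*, *E2F1*, *E2F2* and *E2F8*, and the 1 that rose was *E2F7*. Without *E2F2* and *E2F8*, which passed the filter through the groups in which they were high, 3 of 8 members were lower and 1 was higher. The ranges of 3 of these 8 members then lay lower without overlap, and those of 2 lay higher. Leaving out growing replicate 4 alone or RIS replicate 2 alone gave 6 members as well.

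*E2F1* shows how far the 2 libraries decide this comparison. It had 23.1 to 37.2 CPM in 5 growing samples and 5.27 CPM in growing replicate 4, and 4.80 to 7.19 CPM in 5 RIS samples and 28.5 CPM in RIS replicate 2. Each of the 2 lay within the range of the other group's 5 samples. The log2 fold change was −1.57 (standard error 0.40, adjusted p = 0.019) with 24 samples and −2.52 (standard error 0.16, adjusted p = 2.2e-12) with 22. *RBL1* had 13.1 to 27.2 CPM in 5 growing samples and 1.54 CPM in replicate 4, and 2.29 to 4.38 CPM in 5 RIS samples and 15.5 CPM in replicate 2. Its log2 fold change was −1.75 (adjusted p = 0.021) and −2.68 (adjusted p = 1.2e-09). *RB1* followed the same pattern, with 58.6 to 87.3 CPM in growing samples other than replicate 4 (23.1 CPM) and 28.7 to 38.2 CPM in RIS samples other than replicate 2 (71.2 CPM). It gave −0.74 (adjusted p = 0.046) and −1.17 (adjusted p = 2.6e-07).

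The rare members were absent or nearly absent on the side with RAS. *E2F2* had 1.22 to 3.22 CPM in 5 growing samples and no read in replicate 4, and 0 to 0.169 CPM in 5 RIS samples and 2.36 CPM in replicate 2. *E2F8* had 2.90 to 4.26 CPM in 5 growing samples and no read in replicate 4, and 0 to 0.274 CPM in 5 RIS samples and 3.36 CPM in replicate 2. Without the 2 libraries, growing over RIS was 26.7-fold for *E2F2* (184 and 5 counts, 95% counting interval 11.2 to 83.3) and 40.2-fold for *E2F8* (277 and 5 counts, 17.03 to 125). These intervals cover the counting of pooled reads and not the spread between samples. Both genes passed the filter through the groups in which they were high, so the ratios are descriptions and no test.

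*E2F7* went up in the same cells. It had 48.4 to 98.0 CPM in 5 growing samples and 114 CPM in replicate 4, and 121 to 183 CPM in 5 RIS samples and 66.8 CPM in replicate 2. The log2 fold change was 0.73 (standard error 0.22, adjusted p = 0.034) with 24 samples and 1.00 (standard error 0.19, adjusted p = 7.8e-05) with 22. *E2F4* had 54.5 to 62.5 CPM in 5 growing samples and 77.5 CPM in replicate 4, and 70.7 to 81.1 CPM in 5 RIS samples and 52.0 CPM in replicate 2. It gave 0.21 (adjusted p = 0.17) and 0.36 (adjusted p = 0.0012), under the fold threshold in both. *E2F3*, *E2F5* and *RBL2* passed neither fit. With 22 samples their 95% intervals were −0.39 to 0.06, −0.004 to 0.80 and −0.19 to 0.24 on the log2 scale.

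Against growing samples, RIS+shHMGA1 samples had 5 members lower (*RB1*, *RBL1*, *E2F1*, *E2F2* and *E2F8*) and 1 higher (*E2F5*), where 23.9% and 22.0% of tested genes were. With 22 samples *E2F7* was higher as well, which made 5 lower and 2 higher against 28.5% and 28.3% of tested genes. *E2F2* and *E2F8* passed the filter through the groups in which they were high. The 8 other members gave 3 lower and 1 higher with 24 samples, and 3 lower and 2 higher with 22. The fit on these samples alone called 4 members, since *E2F2* and *E2F8* did not pass its filter. It called 4695 of 12731 tested genes. *E2F5* rose by 0.84 on the log2 scale (standard error 0.21, adjusted p = 0.0019), and its call was lost without replicate 1 (0.72) or replicate 2 (0.74). With 22 samples it rose by 1.01 (adjusted p = 2.8e-05). *E2F7* gave 0.51 (adjusted p = 0.044) with 24 samples and 0.65 (adjusted p = 0.0024) with 22. The growing samples are shared with the comparison of RIS and growing.

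The fall of some members and the rise of others changed the make-up of the family. Levels between genes were compared per length, as RPKM on the canonical transcript. In shHMGA1 samples the order was *E2F4* (27.1 ± 2.34 RPKM, SD, n = 6), *E2F7* (10.8 ± 3.22), *E2F1* (10.3 ± 1.19), *E2F3* (7.29 ± 0.599), *E2F5* (4.22 ± 1.09), *E2F8* (0.774 ± 0.165) and *E2F2* (0.509 ± 0.0528). *E2F7* and *E2F1* differed there by less than their spread. In RIS+shHMGA1 samples the order was *E2F4* (35.7 ± 3.32), *E2F7* (19.3 ± 2.83), *E2F5* (7.15 ± 1.48), *E2F3* (5.72 ± 0.445), *E2F1* (2.19 ± 0.430), *E2F8* (0.0233 ± 0.0196) and *E2F2* (0.0184 ± 0.0213). *E2F5* and *E2F3* differed by less than the spread of *E2F5*, as did *E2F8* and *E2F2* by less than theirs. *E2F1* thus lay above *E2F3* and *E2F5* in shHMGA1 samples and below both in RIS+shHMGA1 samples. The order depends on the length used. With the union of annotated exons as length, an alternative chosen after seeing the data, *E2F5* came after *E2F3* in RIS+shHMGA1 samples (2.34 ± 0.486 and 5.55 ± 0.432 RPKM), and *E2F1* came before *E2F7* in shHMGA1 samples (10.3 ± 1.19 and 9.82 ± 2.93). *E2F1* (2.19 ± 0.430) and *E2F5* then differed by less than their spread in RIS+shHMGA1 samples. *E2F4* was first in both groups on either length.

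As shares of the summed E2F RPKM in each sample, *E2F1* made up 15.4 to 19.3% in shHMGA1 and 2.31 to 3.73% in RIS+shHMGA1 samples. *E2F7* made up 14.2 to 23.0% and 24.003 to 34.6%, and *E2F5* 5.36 to 10.6% and 7.28 to 13.5%. *E2F4* was the largest part throughout, at 41.2 to 48.9% and 44.7 to 54.7%. On the exon union *E2F5* made up 2.31 to 4.80% and 3.41 to 6.52%. In RIS+shHMGA1 samples on the exon union, *RB1* (4.42 ± 0.935 RPKM) and *RBL2* (4.91 ± 0.611) differed by less than their spread. Their shares of the pocket proteins overlapped there, at 43.1 to 48.3% and 46.7 to 53.6%. On the canonical transcript the pocket proteins changed places. *RB1* took 47.6 to 55.1% of their summed RPKM in shHMGA1 samples and 38.5 to 43.9% in RIS+shHMGA1 samples, while *RBL2* took 32.6 to 38.6% and 52.8 to 59.3%. *RBL1* took 11.1 to 13.9% and 1.74 to 4.81%. Growing replicate 4, at 57.6% for *RBL2* and 2.77% for *E2F1*, had shares within the range of RIS+shHMGA1 samples, and RIS replicate 2, at 31.7% and 18.2%, lay within or next to the range of shHMGA1 samples.

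The effect of the hairpin was tested at each RAS state. In shHMGA1 against growing samples no member was called, with 24 samples (0.27% of tested genes were) or with 22 (2.59%). No member had an unadjusted p under 0.05 in 24 samples, where 1759 genes did, and DESeq2 also called 0 members. The intervals set how much could have been missed. With 22 samples the 95% interval of the log2 difference was −0.56 to −0.002 for *RB1*, −0.65 to 0.16 for *RBL1*, −0.51 to 0.04 for *E2F1* and −0.56 to 0.18 for *E2F7*. It was narrowest for *E2F4* (−0.22 to 0.13), *E2F3* (−0.23 to 0.19) and *RBL2* (−0.16 to 0.24). *E2F2* (−0.37 to 0.60) and *E2F8* (−0.84 to 0.07) had the widest, with *E2F5* (−0.13 to 0.63) between.

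In RIS+shHMGA1 against RIS samples no member passed the thresholds either, with 24 samples (2.55% of tested genes did) or with 22 (12.5%). *E2F5* came closest. It had 5.53 CPM in RIS replicate 2, 7.11 to 11.4 CPM in the other 5 RIS samples, and 10.4 to 17.7 CPM in RIS+shHMGA1 samples. The log2 fold change was 0.72 (standard error 0.21, adjusted p = 0.020) with 24 samples and 0.62 (standard error 0.18, adjusted p = 0.012) with 22. DESeq2 called it, at 0.74 (adjusted p = 0.0073). So did edgeR without growing replicate 4, which enters the fit through the shared spread (0.72, adjusted p = 0.0055), and without all samples of replicate 4 (0.70, adjusted p = 0.0095). A fit with the replicate number as a block called it as well. Of 15 alternative fits, 4 called *E2F5* and 11 did not. At an unadjusted p under 0.05 there were 3 members (*E2F3*, *E2F5* and *E2F8*) of 6647 genes. The *E2F8* and *E2F2* differences of −2.72 and −2.29 with 24 samples rested on RIS replicate 2, and both were −0.06 with 22, where nearly all samples were at or near 0. *E2F1* went from −0.69 to 0.05 and *RBL1* from −1.04 to −0.32.

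Whether RAS acted differently with the hairpin was tested by an interaction. No member was called with 24 samples (0.0% of tested genes) or 22 (0.00745%), and DESeq2 called 0 members and 3 genes. At an unadjusted p under 0.05 there were 2 members, *E2F5* (0.64, unadjusted p = 0.045, adjusted p = 0.43) and *E2F2* (−2.62, unadjusted p = 0.046, adjusted p = 0.43), and 1371 genes. With 22 samples these were 0.36 and −0.17. A difference between the RAS response of *E2F5* with and without the hairpin is therefore not shown.

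The genes around the family are given for lists of partners, kinases, inhibitors and targets. These lists were chosen with earlier results of these data known, so their counts are descriptions and no independent test. In RIS+shHMGA1 against shHMGA1 samples, 4 of 9 E2F partners and subunits of the DREAM and MuvB complexes fell and 1 rose, where 19.5% of all tested genes fell and 19.6% rose. *MYBL2* and *FOXM1*, factors that work with MuvB at late cell cycle genes, fell by 4.77 and 3.36 on the log2 scale (adjusted p = 0.00028 for *FOXM1*). *LIN37*, a MuvB subunit, rose by 0.59 (adjusted p = 0.0095). *MYBL2* had 30.7 to 42.3 CPM in shHMGA1 and 0.877 to 1.81 CPM in RIS+shHMGA1 samples, the latter from 6 to 18 counts. It passed the filter through the groups in which it was higher, so its fall is a description and no test of RAS. *LIN9* and *LIN54*, further MuvB subunits, also fell, and *TFDP1*, *TFDP2*, *LIN52* and *RBBP4* were not called.

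The cyclins and kinases that phosphorylate RB had 4 of 8 lower and 1 higher, beside the same shares of all genes. *CDK6* and *CDK2* fell by 2.33 and 2.29 (adjusted p = 0.00032 and 0.00018), and *CDK4*, the other partner of D-type cyclins, rose by 0.69 (adjusted p = 0.0039). *CDK6* had 84.98 to 146 CPM in shHMGA1 and 16.1 to 30.3 CPM in RIS+shHMGA1 samples. Of 7 CDK inhibitors, 2 rose and 3 fell, with the same shares beside them. *CDKN2A*, the gene of p16, and *CDKN1A*, the gene of p21, rose by 1.72 and 0.90 (adjusted p = 0.00053 and 0.0060). *CDKN2C*, the gene of p18, and *CDKN2D*, the gene of p19, fell by 3.90 and by 1.00 (adjusted p = 0.00059 for *CDKN2D*). *CDKN2C* had 5 to 22 counts in RIS+shHMGA1 samples and passed the filter through groups in which it was higher. Its fall is therefore a description and no test of RAS.

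All 24 of the S-phase E2F targets on the list, chosen as said above, fell, where 19.5% of all tested genes did. *UHRF1* on this list (7 to 36 counts in RIS+shHMGA1 samples) passed the filter through groups in which it was higher. So did *CDC25C* (7 to 18 counts) on the mitotic list below. Their median log2 fold change was −2.32, against −0.02 over all tested genes. *TK1*, thymidine kinase, and *MCM10*, a replication factor, had the largest falls, with log2 fold changes of −3.34 and −3.31 (adjusted p = 0.00022 and 0.00029). *TK1* had 67.9 to 86.6 CPM in shHMGA1 and 7.12 to 8.04 CPM in RIS+shHMGA1 samples. All 14 mitotic DREAM targets fell as well, beside the same share of all genes, with a median of −2.78. *TOP2A*, a topoisomerase, and *PLK1*, a mitotic kinase, fell by 3.53 and 3.41 (adjusted p = 0.00023 and 0.00030). In RIS against growing samples with 22 samples, 24 of 24 and 14 of 14 were lower, where 20.5% of all tested genes were. The medians were −2.31 and −2.83. With 24 samples 0 of either list were called, as were 0.0% of all tested genes.

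**Figure D2:**
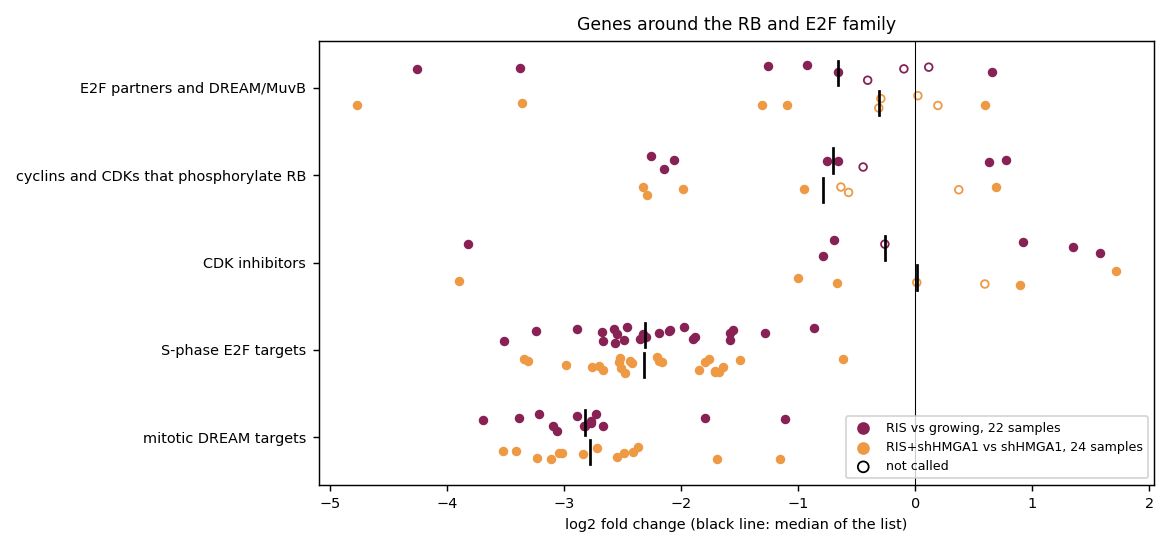
Log2 fold change of each gene on the lists around the RB and E2F family, in RIS against growing (22 samples) and RIS+shHMGA1 against shHMGA1 (24 samples), with filled circles for called genes and a black line at the median of each list. The S-phase and mitotic targets lie wholly below 0, while the partners, kinases and inhibitors lie on both sides.

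The genes most like a member in their pattern, by Pearson's r of log2 CPM over the 24 samples, were named for 4 members as a description. Samples of a group share their RAS state as labelled. Those with and without RAS lie apart on the first component, except growing replicate 4 and RIS replicate 2, which are included here. *RB1* was closest to *DEK* (0.980), *ITGA4* (0.978) and *CDK6* (0.977). *E2F1* was closest to *MCM5* (0.991), *FEN1* (0.989) and *ARSJ* (0.988), of which *MCM5* and *FEN1* are replication genes. *E2F7* was closest to *NFYA* (0.968), *DCBLD2* (0.963) and *HSPA9* (0.954). *RBL2*, whose level was steady, had lower values, with *PPTC7* (0.863), *HMGCS1* (0.862) and *SQLE* (0.846), the last 2 being genes of sterol synthesis.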

How the data were processed

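RNA-seq libraries of 24 samples were made with the TruSeq Stranded mRNA kit. The authors mapped reads to hg19 with STAR (2.5.0b), trimmed with Cutadapt (1.10.0) and counted with Rsubread; its version, annotation and strand setting are not given in the sources used here. The values they deposited are raw counts per Entrez gene identifier, without normalisation. Symbols were taken from a RefSeq table (23696 of 25702 identifiers matched).

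Here, genes were filtered with filterByExpr, libraries normalised by TMM, and all 24 samples fitted with edgeR 4.0.16 (R 4.3.3) by its quasi-likelihood test with Benjamini-Hochberg adjustment over all genes tested (13356, or 13416 with 22 samples). The thresholds for a call were the study's, an FDR of 0.01 and a log2 fold change beyond 0.58 either way. CPM and RPKM use TMM-scaled libraries (prior count 2 for log2 CPM).

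The members and lists were chosen with earlier results of these data known. Named were all members, *HMGA1*, the 2 largest called rises and falls of each list in RIS+shHMGA1 against shHMGA1, and the nearest genes of 4 members; *LIN9*, *LIN54* and list genes without a call were named after their values were seen. Coordinates are from GENCODE lifted to GRCh37. Alternatives were DESeq2 1.42.0, RLE, other filters, a replicate block, an FDR of 0.05, fits on the samples of the contrast and left-out samples. The scripts were tested on simulated counts. No pair of samples of a group differed by as little as sampling noise.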

Additional observations from a re-analysis of the deposited data

Results flagged for a closer look

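In each group of 6 samples, the gap between an extreme sample's log2 CPM and its nearest neighbour was divided by the range of the group. A member was singled out where this passed Dixon's 95% critical value. Of 40 tests (10 members in 4 groups), 11 passed, and all 11 concern the pair of libraries that already stood apart on the first principal component. By chance about 1 in 20 groups would pass, but levels of the members go together, so the 40 tests are not independent and no chance count applies. Growing replicate 4 was set apart as the lowest growing sample for *RB1* (0.699), *RBL1* (0.740), *E2F1* (0.754), *E2F2* (0.702) and *E2F8* (0.888). RIS replicate 2 was set apart as the highest RIS sample for *RB1* (0.686), *RBL1* (0.668), *E2F1* (0.776), *E2F2* (0.745) and *E2F8* (0.684), and as the lowest for *E2F4* (0.691). In both hairpin groups no sample of any member was set apart.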

How the results depend on the processing

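In RIS+shHMGA1 against shHMGA1 samples 7 members were called by DESeq2, RLE, both other filters, the replicate block, an FDR of 0.05 and the fit on these samples alone, and 5 to 7 when a replicate number was left out. All-gene counts went with this, at 5220 as reported and 5187 (RLE) to 6081 (FDR of 0.05) over the former settings. With a replicate number left out they were 3037 (replicate 3) to 5502 (replicate 4), and 3184 without replicate 1. In RIS against growing samples, where 0 were called, DESeq2 gave 2, an FDR of 0.05 gave 6, and leaving out growing replicate 4, RIS replicate 2 or both gave 6, and leaving out 1 replicate number gave 0 to 5. Over all genes that comparison gave 0 calls as reported, 829 by DESeq2, 1537 at an FDR of 0.05, 3420 without growing replicate 4, 2579 without RIS replicate 2 and 5331 without both. In RIS+shHMGA1 against RIS samples, where 0 were called, *E2F5* alone gave 1 by DESeq2, with the replicate block (adjusted p = 0.0071), at an FDR of 0.05 and without growing replicate 4, and 0 to 1 when a replicate number was left out. All-gene counts there were 341 as reported, 1533 by DESeq2, 1637 with the block, 2898 at an FDR of 0.05, 2555 without growing replicate 4, 141 without RIS replicate 2, 1677 without both and 189 without a filter. For shHMGA1 against growing they were 36, 98 by DESeq2, 85 at an FDR of 0.05, 67 and 348 without growing replicate 4 and without both, 23 without a filter and 5 on these samples alone. The causes were not tested.

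The replicate numbers were checked for pairing by correlating deviations from group means. Same-numbered samples correlated at −0.594 to 0.828 in RIS against growing and −0.0233 to 0.326 in RIS+shHMGA1 against shHMGA1, and 5 of 6 pairs were over 0.1 in 3 comparisons but all 6 in none, so same-numbered samples were not treated as pairs. The number may still mark something shared. In shHMGA1 against growing the correlations were 0.0747 to 0.481. With growing replicate 4 and RIS replicate 2 left out, *E2F7* and *RBL2* were highest in replicates 5 and 6 of every group. With the block, members called changed by 1 in RIS+shHMGA1 against RIS and by 0 in the other comparisons.

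Small differences turned sign. With the block, shHMGA1 against growing gave 0.16 for *RBL1* and 0.074 for *E2F1*. It gave −0.020 for *E2F3* without growing replicate 4 and −0.020 without both libraries. In RIS+shHMGA1 against RIS, *E2F1* gave 0.049 without RIS replicate 2 and 0.048 without both, and *E2F4* −0.0032 and −0.0028. *RBL2* in RIS+shHMGA1 against growing gave −0.0023 without a filter, −0.020 without growing replicate 4, −0.021 without both and −0.00086 on these samples alone. In the interaction, both libraries left out gave 0.069 for *RB1*, 0.28 for *E2F1*, −0.16 for *E2F7* and 0.33 for *E2F8*. There, RIS replicate 2 left out gave 0.074 for *E2F1*, −0.020 for *E2F7* and 0.098 for *E2F8*, and growing replicate 4 left out gave −0.029 for *E2F7*. With a library or a replicate number left out, ranges that crossed 0 were −0.024 to 0.30 for *E2F5* in RIS against growing. In shHMGA1 against growing they were −0.30 to 0.016 for *RB1*, −0.25 to 0.11 for *RBL1*, −0.23 to 0.11 for *E2F1*, −0.047 to 0.11 for *E2F3* and −0.0019 to 0.25 for *E2F5*. For RIS+shHMGA1 against RIS they were −0.85 to 0.13 for *E2F1*, −2.93 to 0.20 for *E2F2* and −0.0032 to 0.14 for *E2F4*, and against growing −0.027 to 0.048 for *RBL2*. In the interaction they were −0.90 to 0.15 for *E2F1*, −0.063 to 0.235 for *E2F7* and −3.165 to 0.098 for *E2F8*. None of these was called with the settings of the report.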

Other observations

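Within groups, levels of some members went with the replicate number. The comparison was chosen after the values were seen, with growing replicate 4 and RIS replicate 2 left out, and the labels name no batch. Mean *E2F7* was 57.8 CPM in growing replicates 1 to 3 and 89.4 in replicates 5 and 6. It was 50.1 in shHMGA1 replicates 1 to 4 and 85.1 in replicates 5 and 6. It was 127 and 162 in RIS, and 102 and 127 in RIS+shHMGA1 samples. In each group every one of replicates 5 and 6 lay above every one of the others. *RBL2* showed the same order, with 38.4 and 43.3 CPM in growing, 39.1 and 46.3 in shHMGA1, 37.9 and 45.9 in RIS and 37.1 and 45.1 in RIS+shHMGA1 samples. *E2F5* went the other way in the RIS+shHMGA1 group, at 15.7 and 10.8 CPM, and in the RIS group, at 10.3 and 7.43 CPM. In shHMGA1 samples *E2F5* ranges of the 2 sets overlapped. The RAS difference of *E2F7* held in value within each set.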
